A study of Mus musculus with 11 samples.

Results

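The late-onset genes are 43 genes whose ribosome-bound mRNA stayed near its postnatal day 7 level at day 14 and stood higher at day 21. They were chosen by their measured values, out of 77179 Ensembl gene IDs, in TPM, a unit that scales each transcript for its length and each library to the same total. The rule set 4 conditions on the pull-down libraries: a mean of at least 5 TPM at P21, a P21 mean at least 1.5 times the P14 mean, P14 and P7 means that were each at least 0.8 times the other, and a lowest P21 library above the highest P14 library. The age pattern is what the genes were chosen for, so it is described here and not tested.

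The libraries come from cortex and hippocampus, processed together, of mice aged 7, 14 or 21 days after birth (P7, P14 and P21). The Neurod6 (NEX) locus expresses Cre recombinase in excitatory neurons of the forebrain, where Cre turns on the ribosomal protein Rpl10a fused to eGFP, and an antibody then pulls down the tagged ribosomes with their mRNA. All 11 libraries come from mice with the Rpl10aeGFP/eGFP reporter alleles. The 9 pull-down (IP) libraries, 3 at each age, are from NEX-Cre;Rpl10aeGFP/eGFP mice and are labelled biological replicates, without a statement on pooling of animals. Of the 2 whole-tissue (input) libraries, both from P7, replicate 1 has the Cre genotype and replicate 2 is Rpl10aeGFP/eGFP without Cre. TPM keep no depth, so the depth behind each value is unknown and precision is given by the spread between libraries. Libraries held 15154 to 17793 genes at 1 TPM or more. Slc17a7, the vesicular glutamate transporter of excitatory neurons, was at 628, 1823 and 2046 TPM in IP at P7, P14 and P21. Its P7 IP libraries, from 515 to 724 TPM, overlapped the inputs, at 514 and 560 TPM. Neurod6 was at 152, 94.8 and 74.4 TPM in IP and at 112 TPM in P7 input. Mbp, a marker of oligodendrocytes, rose in IP from 17.6 to 161 and 253 TPM and was at 108 TPM in P7 input. Gad1, the GABA synthesis gene of inhibitory neurons, was at 6.27, 8.91 and 10.7 TPM in IP and at 69.6 TPM in P7 input.

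In the mouse, the third postnatal week follows eye opening and leads up to weaning. It is known in the forebrain as a time when synapses are added and pruned, axons are myelinated and neurons approach their adult firing properties. The late-onset genes come from many pathways: secreted proteins, membrane receptors, signalling scaffolds, chaperone and proteasome subunits, a motor protein, metabolic enzymes and unannotated transcripts.

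The DNA around the annotated start of 6 late-onset genes is given first, so that genes chosen for a shared course with age can be compared at their starts. H2-T23, Plk5, P2rx4 and Nbl1 are the named coding genes with the largest ratio of P21 to P14, Scg2 holds the sole cyclic AMP response element found, and Uqcc2 is the most abundant late-onset gene. The windows are from RefSeq, assembly GRCm38.p6, a different build from the mm39 of the deposited values. They run from 250 bases before to 50 bases after the start, 5′ to 3′ along the gene. H2-T23 is at chr17:36032652-36032951 on the minus strand, Plk5 at chr10:80356209-80356508 on the plus strand and P2rx4 at chr5:122707294-122707593 on the plus strand. Nbl1 is at chr4:139092921-139093220 on the minus strand, Scg2 at chr1:79439977-79440276 on the minus strand and Uqcc2 at chr17:27133842-27134141 on the minus strand. Capitals mark a match, on either strand, to one of the 12 motifs searched. In these windows the matches are boxes named after CCAAT, the GC box of SP and KLF factors, which reads GGGCGG, nuclear receptor motifs, which read AGGTCA, and the cyclic AMP response element (TGACGTCA).
H2-T23: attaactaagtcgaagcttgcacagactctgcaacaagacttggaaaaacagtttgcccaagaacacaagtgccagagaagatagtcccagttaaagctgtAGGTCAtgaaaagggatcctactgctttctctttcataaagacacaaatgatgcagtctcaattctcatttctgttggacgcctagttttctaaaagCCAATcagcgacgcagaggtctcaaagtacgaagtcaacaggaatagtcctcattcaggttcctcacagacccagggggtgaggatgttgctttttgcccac
Plk5: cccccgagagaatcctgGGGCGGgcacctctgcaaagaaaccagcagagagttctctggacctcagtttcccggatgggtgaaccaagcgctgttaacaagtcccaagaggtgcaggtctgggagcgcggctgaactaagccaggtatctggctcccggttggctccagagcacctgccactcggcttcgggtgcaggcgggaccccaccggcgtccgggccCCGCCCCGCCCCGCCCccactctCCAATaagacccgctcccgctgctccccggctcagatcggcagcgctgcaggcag
P2rx4: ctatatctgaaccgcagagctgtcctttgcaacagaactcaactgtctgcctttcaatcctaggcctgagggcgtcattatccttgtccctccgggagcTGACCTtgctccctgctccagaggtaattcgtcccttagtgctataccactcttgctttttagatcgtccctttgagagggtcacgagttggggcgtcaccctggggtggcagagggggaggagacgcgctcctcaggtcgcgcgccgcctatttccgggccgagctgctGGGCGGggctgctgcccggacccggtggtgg
Nbl1: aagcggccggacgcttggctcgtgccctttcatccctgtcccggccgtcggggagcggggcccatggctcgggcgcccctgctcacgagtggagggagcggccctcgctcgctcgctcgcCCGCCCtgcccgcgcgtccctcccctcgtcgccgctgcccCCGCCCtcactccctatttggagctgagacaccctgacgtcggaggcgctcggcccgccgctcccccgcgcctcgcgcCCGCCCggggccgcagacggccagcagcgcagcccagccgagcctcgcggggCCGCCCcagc
Scg2: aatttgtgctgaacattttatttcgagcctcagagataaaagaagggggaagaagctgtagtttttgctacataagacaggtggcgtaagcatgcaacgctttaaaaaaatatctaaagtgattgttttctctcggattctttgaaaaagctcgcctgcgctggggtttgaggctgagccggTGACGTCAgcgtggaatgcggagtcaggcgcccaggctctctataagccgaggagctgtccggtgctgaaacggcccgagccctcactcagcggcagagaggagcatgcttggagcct
Uqcc2: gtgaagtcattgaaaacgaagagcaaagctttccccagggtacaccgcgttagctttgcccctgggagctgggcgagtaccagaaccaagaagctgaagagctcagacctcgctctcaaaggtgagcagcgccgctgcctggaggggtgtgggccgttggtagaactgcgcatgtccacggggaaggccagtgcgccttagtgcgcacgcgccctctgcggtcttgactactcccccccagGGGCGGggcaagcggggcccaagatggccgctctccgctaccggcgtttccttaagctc

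RefSeq windows were matched for 27 late-onset genes, 35 windows in all; Ttr, Kif5b, Mpp3, Afap1l1, Gm11175 and Gm40493 had no match. The GC box was in 25 of the 35 windows (71.4%), in 35.7% of all 32841 windows and in 61.3% of the 13913 windows of tested protein-coding genes. The CCAAT box was in 15 windows (42.9%), against 37.4% of all windows and 37.5% of coding ones. The site of EGR factors (GCGNGGGCG) was in the windows of Dhrs3, Metrnl and Plekho1, against 5.55% of all windows and 10.5% of coding ones. The cyclic AMP response element was in the Scg2 window, against 1.79% of all windows and 2.9% of coding ones. The pattern searched for a MEF2-type site allowed any base in its middle, so a match need not be a MEF2 site. Windows of Abhd11os and Ier3 matched this loose pattern, against 3.69% of all windows and 3.01% of coding ones. Both matches had a C or G among the middle bases, so no MEF2 site is read from them. The nuclear receptor motif was in 5 windows, against 16.3% of all windows and 12.3% of coding ones. The AP-1 site (TGANTCA) was in 2, against 7.81% and 4.87%. The TATA box (TATAAA) was in 2, against 13.6% and 7.24%, and the D-box (TTANGTAA) in 1, against 2.32% and 1.47%. The E-box CACGTG, the glucocorticoid response element and the NRF1-type site had no match in the 35 windows, and 7.15%, 0.475% and 0.971% of all windows hold them. Of coding windows, 9.49%, 0.352% and 1.89% hold them. Motifs were searched on both strands; the GC box and the EGR site can overlap, and a match is a run of letters and not a bound site. Median GC content was 60.3% in the late-onset windows, 52.7% in all windows and 60.7% in coding ones, with 16, 7 and 20 CG pairs. GC box share, GC content and CG pairs of the late-onset windows thus lay nearer to those of coding genes than to those of all windows.

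The P21 means of the late-onset genes ran from 5.20 to 1032 TPM, with a median of 22.0 TPM. Of the 43, 18 were below 10 TPM and 9 above 100 TPM. The median ratio of P21 to P14 was 1.67, and 10 genes had a ratio of at least 2, counting Abhd11os, which was listed at 0 before P21. Summed over the set, IP held 1974, 1940.0 and 1938 TPM at P7, 2103, 2014 and 1947 TPM at P14 and 3436, 3270.1 and 3170.2 TPM at P21. The P7 input libraries held 3019 and 2838 TPM, of which 535 and 497 were Ttr and 993 and 868 Ptgds. Without these 2 genes input held 1491 and 1473 TPM, below the 1928, 1856 and 1874 TPM of IP at P7. In bulk IP libraries, fewer cells of a type and less RNA per cell cannot be told apart.

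All 43 genes passed the filter of at least 1 TPM in at least 2 libraries, Abhd11os only through P21. At P14 the ratio to P7 ran from 0.849 to 1.23 with a median of 1.07. It was above 1 in 28 genes and below 1 in 14. The band left room for small steps: Nbl1, Gstm7, Grhpr, Metrnl, Scg2, Ubqln4 and Psmc5 had every P14 library above every P7 library, which held for 31.1% of all tested genes. Afap1l1 had every P14 library below every P7 library, as had 26.7% of tested genes. In limma's fit over all genes Nbl1, Grhpr and Psmc5 passed the adjusted p threshold of 0.05 as higher at P14 (26.7% of tested genes did) and Acta1 as lower (22.8% did). From P14 to P21, 42 genes passed it as higher, against 8.53% of tested genes, a count that the rule largely fixes, and ENSMUSG00000139722 did not. In 42 genes the lowest P21 library was also above the highest P7 library, as in 29.3% of tested genes, and Ttr was the exception. The rule largely fixes this count as well, so nothing is read from it.

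**Figure D1:**
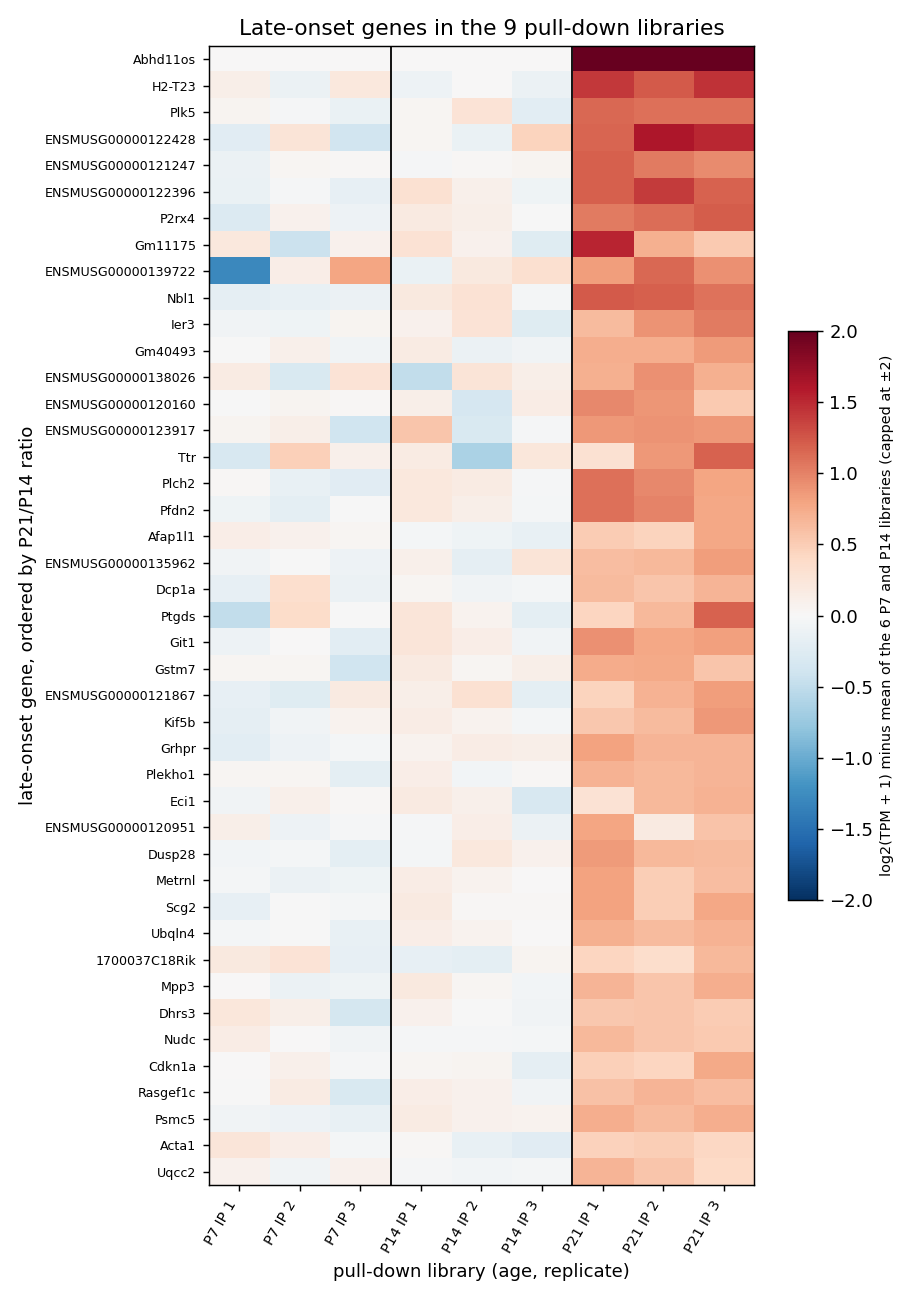
Each row is 1 late-onset gene and each column 1 IP library; colour is log2(TPM + 1) minus the gene's mean over the 6 P7 and P14 libraries, capped at 2 in either direction. The 3 P21 columns are above 0 in all 43 genes, most in Abhd11os, listed at 0 before P21. In 40 genes every P7 and P14 library is within 0.5 of 0; ENSMUSG00000139722, Ttr and ENSMUSG00000123917 vary more, and in Ttr a P7 library is above P21 replicate 1.

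Secreted and surface proteins gave some of the largest late steps. Nbl1, a secreted antagonist of bone morphogenetic proteins, was at 77.3, 79.0 and 80.5 TPM at P7, 99.99, 107 and 85.1 TPM at P14 and 206, 201 and 186 TPM at P21. Its P14 libraries were already slightly above the P7 ones, and the P21 libraries stood apart from both. Nbl1 was at 55.5 and 57.6 TPM in input, below all P7 IP libraries. Its ratio of P21 to P14 was 2.03, and in the P7 fit it was higher in IP than in input by 0.47 ± 0.09 (limma adjusted p = 0.000531) on the log2(TPM + 1) scale, a scale that understates changes of low genes. The window printed above for Nbl1 is the most GC-rich of the 6, at 78.3%. Scg2, a granin stored in dense-core vesicles and cut into the peptide secretoneurin, was at 57.6, 64.4 and 63.2 TPM at P7, 73.5, 66.0 and 66.4 TPM at P14 and 115, 91.4 and 112 TPM at P21. All P21 libraries lay above those of P14, with replicate 2 lowest. In input Scg2 was at 94.6 and 96.0 TPM, above all IP libraries of P7 and P14 and below P21 replicates 1 and 3. Metrnl, a secreted meteorin-like factor, was at 6.74, 6.33 and 6.48 TPM at P7, 7.82, 7.31 and 7.01 TPM at P14 and 12.9, 10.1 and 11.1 TPM at P21, with all P14 libraries above those of P7 and all P21 libraries above those of P14.

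P2rx4, an ATP-gated cation channel, was at 4.07, 5.46 and 4.67 TPM at P7, 5.95, 5.65 and 5.06 TPM at P14 and 11.5, 12.3 and 13.1 TPM at P21. Its P7 and P14 libraries overlapped, the P21 libraries did not reach down to them, and input was at 9.65 and 8.75 TPM, between the 2 sets. H2-T23, which codes for the nonclassical class I molecule Qa-1, was at 2.83, 2.24 and 3.06 TPM at P7, 2.28, 2.56 and 2.26 TPM at P14 and 8.36, 7.28 and 8.58 TPM at P21. It had the largest ratio of P21 to P14 among genes with a P14 value, 3.41, with P14 a little below P7 and all P21 libraries above the 4.10 and 4.65 TPM of input. Class I genes have near-identical relatives, so reads may have been split between them and the H2-T23 values are uncertain.

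Among 14 tested interferon and antigen presentation genes, H2-T23 included, 6 were higher at P21 than at P14 and 0 lower, with a median of 0.36 on the log2 scale; of all tested genes 8.53% were higher and 19.7% lower, with a median of -0.08. Without H2-T23, 5 of 13 were higher. Those 5 were B2m, the light chain of class I molecules, Tap2, a peptide transporter, Ifit3, Isg15 and Irf1, which interferon induces. B2m was at 40.0, 50.02 and 54.6 TPM at P7, 86.6, 75.6 and 76.4 TPM at P14 and 96.6, 97.4 and 116 TPM at P21. Its P21 minus P14 change was 0.37 ± 0.11 (limma adjusted p = 0.0323). Ifit3 reached 1.78 TPM and Isg15 2.18 TPM at P21, and all 14 genes of the list were lower in IP than in input at P7. The microglia markers, 14 genes of the immune cells of brain, summed to 33.1 to 40.2 TPM in IP at P7, 53.6 to 64.2 at P14 and 59.2 to 73.9 at P21, against 263 to 335 in input. None of these markers was at 0 in all libraries of a group. Their part in these values was not tested. The neuropeptide list with Scg2 had 10 of 23 tested genes higher at P21 and 4 lower, with a median of 0.29; without Scg2, 9 of 22 were higher, with a median of 0.18.

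**Figure D2:**
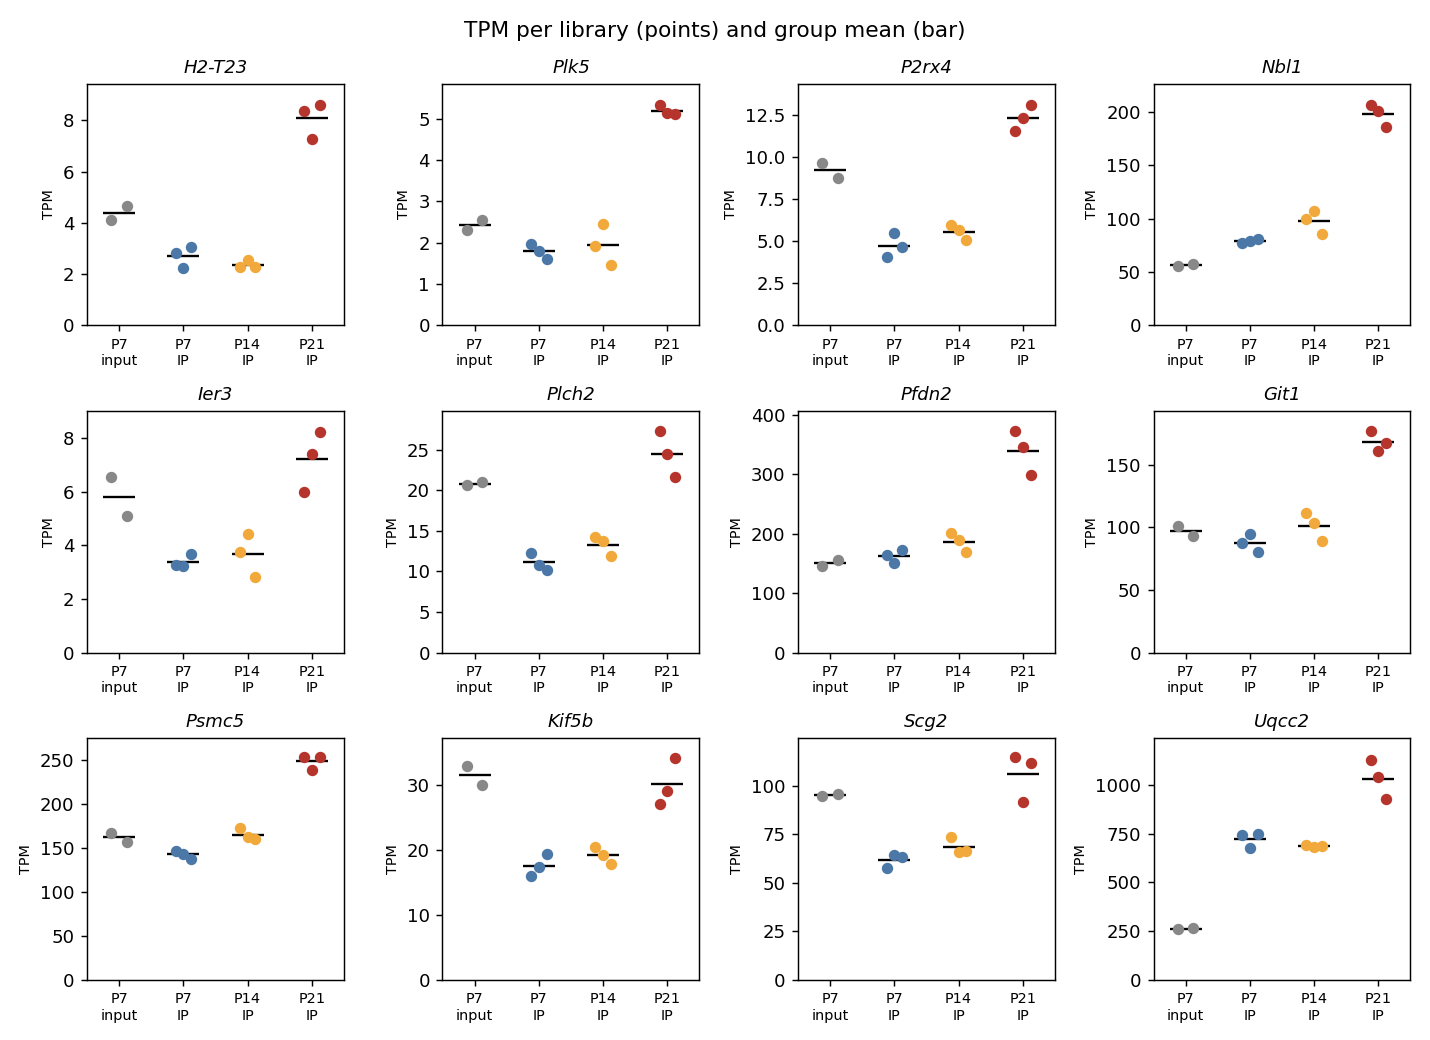
TPM of 12 late-onset genes by library; points are libraries of P7 input and of IP at P7, P14 and P21, bars are group means, and each panel has its own axis from 0. In every panel the 3 P21 points lie above the P14 points. H2-T23, P2rx4, Plch2, Ier3, Scg2, Kif5b, Plk5, Psmc5 start below input at P7, while Nbl1 and Uqcc2 start above it.

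Several late-onset genes code for enzymes, scaffolds and regulators of signalling and the cell cycle. Plch2, a phospholipase C of the eta type that cleaves a membrane phosphoinositide in response to calcium, was at 12.3, 10.9 and 10.2 TPM at P7, 14.2, 13.7 and 11.9 TPM at P14 and 27.3, 24.5 and 21.7 TPM at P21. The P21 libraries were above the 20.7 and 21.0 TPM of input, and those of P7 and P14 below. Git1, a scaffold and GTPase-activating protein for Arf at synapses and adhesions, was at 87.5, 94.9 and 80.6 TPM at P7, 112, 103 and 89.3 TPM at P14 and 177, 161 and 167 TPM at P21. Its P7 and P14 libraries overlapped, and its spread at P21 was small. Mpp3, a membrane scaffold of the MAGUK type, was at 19.1, 17.4 and 17.8 TPM at P7, 21.9, 19.6 and 18.2 TPM at P14 and 30.9, 28.4 and 32.0 TPM at P21, again with overlap of the 2 earlier ages only.

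Plk5, a member of the polo-like kinase family known from brain, had the lowest P21 mean, 5.20 TPM. It was at 1.97, 1.81 and 1.60 TPM at P7, 1.93, 2.45 and 1.462 TPM at P14 and 5.32, 5.15 and 5.12 TPM at P21, with the earlier ages overlapping and P21 libraries close to each other. Ier3, an immediate early response gene, was at 3.27, 3.22 and 3.67 TPM at P7, 3.75, 4.42 and 2.81 TPM at P14 and 6.00, 7.42 and 8.24 TPM at P21, and its P21 libraries spread more. Cdkn1a, the p21 inhibitor of cyclin-dependent kinases, was at 26.6, 28.7 and 26.1 TPM at P7, 27.3, 27.7 and 23.5 TPM at P14 and 37.6, 36.3 and 45.6 TPM at P21. Replicate 3 was the highest P21 library in both Ier3 and Cdkn1a. Among 16 tested glucocorticoid-induced genes, which include Cdkn1a, 3 were higher at P21 and 0 lower, with a median of 0.02, next to the 8.53% and 19.7% of all tested genes. Without Cdkn1a, 2 of 15 were higher.

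Rasgef1c, which codes for an exchange factor of the Ras superfamily, was at 31.1, 34.9 and 25.1 TPM at P7, 34.2, 33.0 and 29.6 TPM at P14 and 47.4, 50.6 and 48.3 TPM at P21. Its libraries of P7 and P14 overlapped, and P21 was clear of them. Plekho1, a pleckstrin homology domain adaptor, was at 90.1, 89.3 and 76.2 TPM at P7, 95.8, 84.3 and 89.0 TPM at P14 and 142, 137 and 141 TPM at P21, with a P21 coefficient of variation of 1.95%. Dusp28, an atypical dual-specificity phosphatase, was at 30.8, 31.2 and 27.8 TPM at P7, 31.2, 37.3 and 34.2 TPM at P14 and 58.5, 50.9 and 49.9 TPM at P21, all above the 11.3 and 13.5 TPM of input. Afap1l1, an actin filament associated protein, was at 5.48, 5.26 and 5.04 TPM at P7, 4.72, 4.55 and 4.33 TPM at P14 and 7.37, 7.04 and 9.06 TPM at P21. It dipped at P14, when all libraries lay below those of P7, before the higher P21 values.

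Protein folding and degradation contributed 4 abundant genes. Pfdn2, a subunit of the prefoldin chaperone that hands newly made actin and tubulin to the cytosolic chaperonin, was at 164, 151 and 173 TPM at P7, 201, 189 and 169 TPM at P14 and 372, 346 and 299 TPM at P21. Its P7 and P14 libraries overlapped in part, and P21 lay far above both, highest in replicate 1 and lowest in replicate 3. Psmc5, an ATPase subunit of the proteasome's regulatory particle, was at 146, 143 and 138 TPM at P7, 172, 162 and 160.0 TPM at P14 and 254, 238 and 253 TPM at P21. It took a small first step, with all P14 libraries above P7, and a larger second one. Ubqln4, a ubiquilin that brings ubiquitinated proteins to the proteasome, was at 49.5, 50.7 and 46.0 TPM at P7, 55.9, 53.5 and 51.7 TPM at P14 and 84.1, 80.0 and 83.4 TPM at P21. Its P21 libraries spanned a narrow range above the 68.5 and 63.6 TPM of input. Nudc, a cochaperone also tied to the dynein motor, was at 183, 167 and 159 TPM at P7, 164, 163 and 161 TPM at P14 and 262, 244 and 239 TPM at P21, with the libraries of P7 and P14 overlapping.

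The motor gene Kif5b, a heavy chain of kinesin-1, was at 16.0, 17.3 and 19.4 TPM at P7, 20.4, 19.3 and 17.7 TPM at P14 and 27.1, 29.0 and 34.2 TPM at P21. Input was at 33.0 and 29.9 TPM, above all earlier IP libraries and within the span of the P21 ones. Acta1, the skeletal muscle form of actin, was at 31.7, 29.4 and 26.01 TPM at P7, 27.2, 24.0 and 22.7 TPM at P14 and 37.2, 37.9 and 35.9 TPM at P21. Its P14 mean was the lowest relative to P7 of all late-onset genes, 0.849 times, and all IP libraries exceeded the 8.78 and 9.01 TPM of input. Actin genes are alike in sequence, so the share of reads given to Acta1 is uncertain. Dcp1a, which activates removal of the mRNA cap, was at 4.16, 6.28 and 4.33 TPM at P7, 4.95, 4.53 and 4.62 TPM at P14 and 7.97, 7.48 and 8.24 TPM at P21.

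Metabolic genes spanned a wide range of levels. Uqcc2, an assembly factor for complex III of the respiratory chain, was the most abundant late-onset gene at 745, 675 and 749 TPM at P7, 694, 681 and 689 TPM at P14 and 1127, 1040.3 and 929 TPM at P21. It lay near the rule's limit, with a ratio of 1.5003, and the P21 libraries stood clear of the earlier ones. Grhpr, the glyoxylate and hydroxypyruvate reductase, was at 11.1, 12.1 and 12.6 TPM at P7, 13.7, 14.5 and 14.2 TPM at P14 and 23.5, 21.5 and 21.5 TPM at P21, with each age above the one before in every library. Eci1, a mitochondrial isomerase of unsaturated fatty acid oxidation, was at 5.17, 5.92 and 5.54 TPM at P7, 6.34, 5.91 and 4.16 TPM at P14 and 6.92, 9.10 and 9.51 TPM at P21. Its P7 and P14 libraries overlapped and all 3 P21 libraries lay above them. Dhrs3, a short-chain dehydrogenase that reduces retinal, had IP means of 5.33, 5.25 and 8.02 TPM at P7, P14 and P21. Gstm7, a glutathione S-transferase of the mu class, was at 3.93, 3.93 and 2.67 TPM at P7, 4.47, 3.96 and 4.21 TPM at P14 and 7.10, 7.19 and 6.08 TPM at P21; its close paralogs leave its values uncertain. In Eci1, Dhrs3 and Gstm7 all P21 libraries were below both P7 inputs, which held 16.7 and 18.5 TPM of Eci1 and 8.76 and 11.9 TPM of Gstm7.

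Ttr and Ptgds are known from other cells. Ttr, the thyroid hormone carrier made by choroid plexus, was at 15.6, 27.9 and 21.2 TPM at P7, 22.2, 12.4 and 23.4 TPM at P14 and 24.6, 36.9 and 46.3 TPM at P21, against 535 and 497 TPM in input. Its P21 replicate 1 lay within the P7 range, and replicate 3 was highest. Ptgds, the prostaglandin D synthase of meninges, choroid plexus and oligodendrocytes, was at 30.3, 56.1 and 42.9 TPM at P7, 51.4, 45.5 and 37.5 TPM at P14 and 58.5, 68.0 and 98.9 TPM at P21, against 993 and 868 TPM in input, with replicate 3 again highest. The other 9 choroid plexus and ependymal markers summed to 9.19 to 9.80 TPM in IP at P7, 10.1 to 11.5 at P14 and 9.00 to 9.80 at P21, against 33.9 to 35.8 in input, and the ranges of P7 and P21 overlapped. With Ttr, 1 of the 10 was higher at P21 and 1 lower. The 17 oligodendrocyte markers summed to 35.6 to 40.0, 318 to 425 and 551 to 793 TPM in IP at the 3 ages, with 13 higher at P21 than at P14 and 0 lower. The 16 astrocyte markers summed to 170.1 to 235, 404 to 483 and 536 to 693 TPM, with 4 higher at P21 than at P14 and 0 lower. The 12 mural and fibroblast markers summed to 20.9 to 37.1, 28.8 to 31.3 and 25.7 to 46.8 TPM, with 1 higher and 0 lower. The 7 erythroid markers, genes of red blood cells, summed to 293 to 399, 299.9 to 702 and 656 to 1290.0 TPM at the 3 ages, with 3 of 5 tested genes higher at P21 than at P14, 0 lower and a median change of 0.97. The 12 markers of striatal projection neurons summed to 134 to 146, 229 to 249 and 336 to 357 TPM, with 4 higher and 0 lower. Of all tested genes, 8.53% were higher at P21 than at P14 and 19.7% lower. No marker of these lists was at 0 in all libraries of a group, and their part in the late-onset values was not tested.

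The remaining late-onset genes are less well annotated. Abhd11os, a noncoding RNA in RefSeq, was listed at 0 TPM in all libraries of P7, P14 and input and at 9.01, 13.4 and 4.75 TPM in IP at P21. It met the P14 condition only because both earlier means were 0, and its P21 values varied most of all late-onset genes. RefSeq places it so that it overlaps Abhd11, which was at 114, 77.2 and 62.1 TPM in IP, and the use of strand in counting is not stated, so its reads are uncertain. Gm11175 was at 5.16, 2.97 and 4.62 TPM at P7, 5.48, 4.67 and 3.48 TPM at P14 and 14.2, 7.69 and 6.65 TPM at P21, with replicate 1 well above the other P21 libraries. Gm40493 had means of 2.78, 2.74 and 5.38 TPM, and 1700037C18Rik of 16.8, 14.4 and 22.0 TPM. The 10 IDs without a symbol had P21 means from 5.29 to 114 TPM. The most abundant of them, ENSMUSG00000122396, was at 42.6, 46.1 and 41.5 TPM at P7, 57.8, 50.3 and 44.0 TPM at P14 and 109, 125 and 108 TPM at P21. ENSMUSG00000122428 had the largest ratio among them, 2.58, at 10.2, 14.7 and 9.03 TPM at P7, 12.5, 11.0 and 16.7 TPM at P14 and 28.3, 39.3 and 36.0 TPM at P21.

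The P7 libraries allow a comparison of tagged neurons with whole tissue, which the choice of genes used only through the P7 mean in the P14 band. Of the 42 genes with a P7 value, 12 were higher in IP than in input, against 18.6% of all tested genes, 22 were lower, against 51.1%, and 8 did not pass limma's adjusted p threshold; 69.8% of all tested genes passed it in either direction. As shares these are 28.6% higher and 52.4% lower. The late-onset genes had to reach 5 TPM at P21, while the tested genes include lower ones. Among genes with a mean of at least 5 TPM, 9 of 33 late-onset genes were higher and 18 lower. Of all such genes 26.2% were higher and 49.9% lower, so the share higher was near that of genes of like level. All 3 IP libraries lay above both inputs in 12 genes (22.1% of all tested) and below both in 23 (56.3%). The median change was -0.29 on the log2 scale, beside -0.33 over all tested genes. Another scaling moves this centre: median-of-ratios scaling set the median of all genes to 0.06 and that of the late-onset genes to 0.13, and quantile normalisation set them to 0.01 and 0.09. With median-of-ratios scaling 16 late-onset genes were higher and 8 lower, against 35.9% and 29.2% of all tested genes. With quantile normalisation 17 were higher and 14 lower, against 31.9% and 32.4%.

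Among genes with a symbol, the muscle actin gene Acta1 and the complex III assembly factor gene Uqcc2 had the largest increases in IP over input. Acta1 was higher in IP by 1.60 ± 0.09 (limma adjusted p = 1.72e-07), with IP 29.0 TPM ± 2.85 (SD, n = 3) against 8.89 TPM in input. Uqcc2 was higher by 1.456 ± 0.08 (limma adjusted p = 1.11e-07), with IP at 745, 675 and 749 TPM against 259 and 266. Dusp28 was higher by 1.21 ± 0.10 (limma adjusted p = 2.33e-06) and Rasgef1c by 0.68 ± 0.12 (limma adjusted p = 0.000511). By the ratio of means, the unnamed ENSMUSG00000138026 stood above them all at 4.80 times input, from 0.717 to 3.44 TPM. Acta1 had a ratio of 3.26, ENSMUSG00000120951 of 3.15 and Uqcc2 of 2.75. Plekho1 was higher by 0.33 ± 0.10 (limma adjusted p = 0.0102); without input replicate 2 the change was 0.19 (limma adjusted p = 0.145). Of the less annotated genes, 1700037C18Rik, Gm40493 and 4 of the 10 unnamed IDs were higher in IP, and Gm11175 was not called.

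At the other end Ttr changed by -4.56 ± 0.31 (limma adjusted p = 5.83e-07) and Ptgds by -4.44 ± 0.26 (limma adjusted p = 1.89e-07). Both were far below input in all IP libraries, with means of 21.6 against 516 TPM and 43.1 against 931 TPM. Eci1 changed by -1.51 ± 0.16 (limma adjusted p = 1.23e-05) and Gstm7 by -1.33 ± 0.16 (limma adjusted p = 2.46e-05). The signalling genes Plch2 and P2rx4 changed by -0.85 ± 0.11 (limma adjusted p = 4.64e-05) and -0.84 ± 0.11 (limma adjusted p = 6.17e-05). Kif5b changed by -0.81 ± 0.11 (limma adjusted p = 6.71e-05), Scg2 by -0.62 ± 0.09 (limma adjusted p = 0.000169) and Cdkn1a by -0.52 ± 0.10 (limma adjusted p = 0.00095). H2-T23 changed by -0.54 ± 0.12 (limma adjusted p = 0.00188), and by 0.05 with quantile normalisation (limma adjusted p = 0.689). Among genes of protein folding and degradation, Psmc5 changed by -0.18 ± 0.05 (limma adjusted p = 0.0116) as deposited and by 0.31 (limma adjusted p = 0.00152) with median-of-ratios scaling, and Nudc by -0.16 ± 0.06 (limma adjusted p = 0.0395) and 0.33 (limma adjusted p = 0.00453), so both turned. The Psmc5 call was lost without input replicate 1, and the Nudc call without any single library of P7 or P14 except P7 IP replicate 1. Ubqln4 lay below both inputs in all P7 IP libraries and changed by -0.43 ± 0.06 (limma adjusted p = 8.77e-05), and by 0.05 (limma adjusted p = 0.519) with median-of-ratios scaling. Pfdn2 was not called as deposited, at 0.11, and changed by 0.60 (limma adjusted p = 0.00137) with median-of-ratios scaling. Scg2, Cdkn1a and H2-T23 lost their calls with that scaling. Git1, Plk5 and Metrnl were not called as deposited.

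In 13 late-onset genes all IP libraries of P7 and P14 lay below both P7 inputs, and at least 1 P21 library reached the lower input. They were H2-T23, P2rx4, Ier3, Plch2, Afap1l1, Kif5b, Grhpr, Scg2, Ubqln4, Mpp3, Nudc, Cdkn1a and ENSMUSG00000121247. In H2-T23, P2rx4, Plch2, Grhpr, Ubqln4, Mpp3, Nudc and ENSMUSG00000121247 every P21 library was above both inputs. Of all tested genes, 56.3% had every P7 IP library below both inputs, and the rule set the P21 rise. The share of all tested genes with the full course was not counted, so nothing is read from the 13. No input library of P14 or P21 was analysed here, so this sets P21 IP beside P7 tissue.

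**Figure D3:**
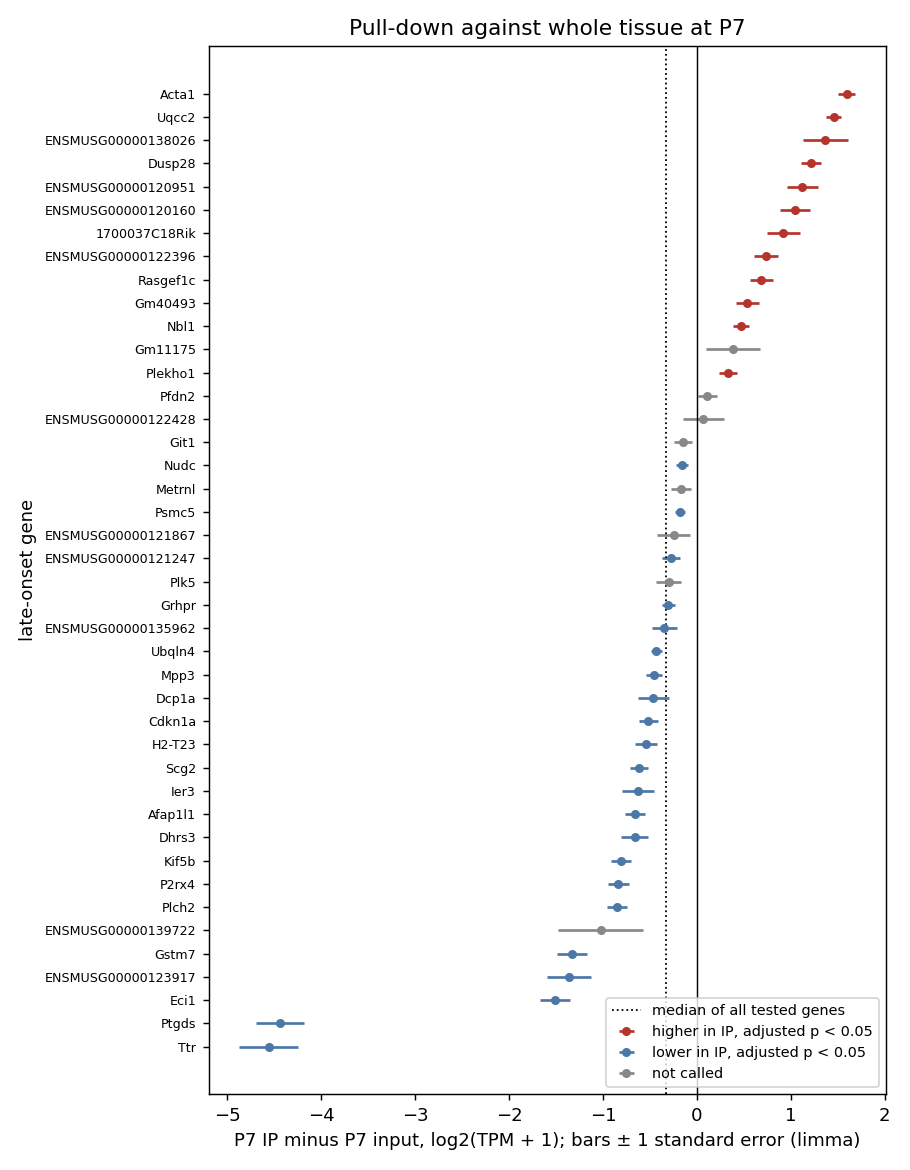
Difference between P7 IP and P7 input in log2(TPM + 1) for the 42 late-onset genes with a P7 value; points are limma estimates, bars 1 standard error, the dotted line the median of all tested genes at -0.33. The genes spread from -4.56 for Ttr to 1.60 for Acta1, with 12 called higher (red) and 22 called lower (blue).

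Late onset was the smaller share of the genes that rose from P14 to P21. Without the condition on P14, 361 genes met the rule, and 43 of them were late-onset. A P14 mean above the band was held by 298, called early starters here, and a mean below it by 20, said to have fallen first. No condition on spread was set for this first step, so a mean just outside the band may differ little from P7. In the 298 early starters 14.1% were higher and 60.1% lower in IP than in input at P7, with a median change of -0.56. In the 20 genes that first fell, 45% were higher and 25% lower, with a median of 0.38. The late-onset genes lay between, at 28.6%, 52.4% and -0.29. P7 IP values enter both this split and the comparison with input, so no test was made. The median ratio of P21 to P14 was 1.67 in the late-onset genes, 1.76 in the early starters and 1.81 in those that fell first. A symbol was known for 76.7% of the late-onset genes, 88.9% of the early starters, 80% of those that fell first and 87% of all tested genes.

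**Figure D4:**
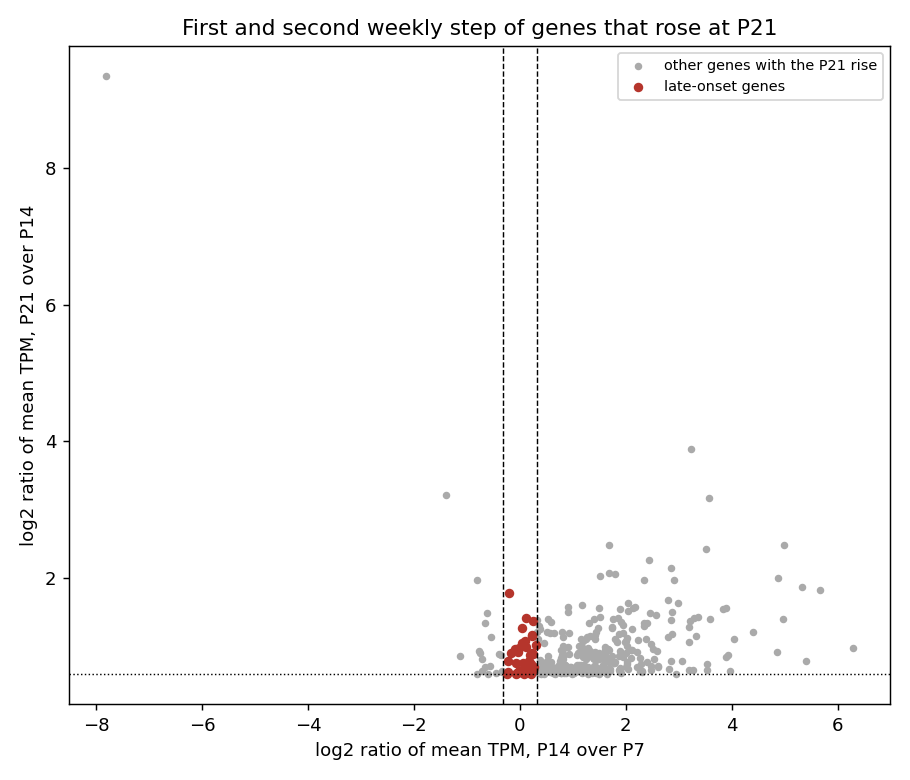
Each point is 1 gene with the P21 rise and values at P7 and P14; the horizontal axis is the log2 ratio of mean P14 to mean P7 TPM, the vertical axis the log2 ratio of mean P21 to mean P14 TPM. Dashed lines mark the edges of the P14 band (0.8 and its inverse) and the dotted line the ratio of 1.5; 296 genes with P14 above the band lie to the right of the 42 late-onset genes (red) and 20 below it to the left. The plot leaves out 3 genes with a mean of 0 at P7 or P14, Abhd11os among them.

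Relatives of the late-onset proteins moved both ways between P14 and P21. For 19 families or complexes, set up after the late-onset genes were known, 52 relatives that are not late-onset genes were tested between P14 and P21: 10 were higher, against 8.53% of all tested genes, and 15 lower, against 19.7%. With median-of-ratios scaling 15 were higher and 9 lower, against 14.2% and 11.9% of all tested genes. With quantile normalisation 12 were higher and 12 lower, against 11.9% and 14.1%. In 12 of the 19 families no relative was higher. Many families had few tested relatives, and no like count was made for other genes, so nothing is read from the 12. The relatives below were named after their values were seen. No sign of a called change given for them turned with the scaling.

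In the proteasome's ATPase ring Psmc5 went from a mean of 165 to 248 TPM, while Psmc1, Psmc2, Psmc3 and Psmc4, its partners in the ring, were not called as deposited, at changes of 0.03, 0.02, 0.10 and 0.02. Psmc6 fell by 0.21 (limma adjusted p = 0.0209), a call lost with both other scalings and without P14 IP replicate 2 or 3 or P21 IP replicate 2. With median-of-ratios scaling Psmc1 and Psmc3 were called higher at 0.15 and 0.21. Psmc3 was at 167, 155 and 160.4 TPM at P7, 162, 162 and 158 TPM at P14 and 179, 164 and 174 TPM at P21. The 6 subunits assemble in equal number, and their mRNA in the IP libraries shifted unequally.

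In prefoldin, Pfdn2 went from 186 to 339 TPM. Pfdn5 rose by 0.34 ± 0.07 (limma adjusted p = 0.00368) and Pfdn6 by 0.25 ± 0.06 (limma adjusted p = 0.00963), while Vbp1 changed by -0.32 ± 0.05 (limma adjusted p = 0.00162) and Pfdn4 by -0.25 ± 0.05 (limma adjusted p = 0.00497); the Pfdn4 call was lost with median-of-ratios scaling. Pfdn1 was not called. The ubiquilin Ubqln2 changed by -0.25 ± 0.05 (limma adjusted p = 0.00323), opposite to the course of Ubqln4, and in the family of Nudc, Nudcd1 changed by -0.33 ± 0.09 (limma adjusted p = 0.0164). The Nudcd1 call was lost without P14 IP replicate 3 (limma adjusted p = 0.0639), P21 IP replicate 1 (0.058) or P21 IP replicate 2 (0.059).

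Opposite courses also stood within pairs of enzymes and scaffolds. Plch1, the other phospholipase C eta, changed by -0.46 ± 0.11 (limma adjusted p = 0.0106) while Plch2 went from 13.3 to 24.5 TPM. Plch1 had means of 2.05, 2.26 and 1.37 TPM. Git2 changed by -0.29 ± 0.09 (limma adjusted p = 0.0359), a call lost with median-of-ratios scaling, quantile normalisation or no filter, and without P14 IP replicate 2 or 3 or P21 IP replicate 1 or 2, while Git1 went from 101 to 168 TPM. Among polo-like kinases Plk3 changed by -0.68 ± 0.10 (limma adjusted p = 0.000665) and Plk4 by -0.64 ± 0.11 (limma adjusted p = 0.00161), and among the inhibitors related to Cdkn1a, Cdkn1b changed by -0.38 ± 0.05 (limma adjusted p = 0.000544). Sostdc1, a BMP antagonist of the family of Nbl1, changed by -0.87 ± 0.10 (limma adjusted p = 0.000239), and the cytoplasmic actin Actg1 by -0.46 ± 0.07 (limma adjusted p = 0.000953). Levels of Sostdc1 were low: its family without Nbl1 summed to 3.79 to 4.17 TPM at P14 and 2.03 to 2.47 TPM at P21. The other tested P2X receptors, P2rx2, P2rx3, P2rx6 and P2rx7, were not called.

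In other families relatives rose as well. Kif5a, a neuronal kinesin-1 heavy chain, rose by 1.13 ± 0.16 (limma adjusted p = 0.000668), from 578, 429 and 389.6 TPM at P14 to 935, 1009 and 1077 at P21, and Kif5c was not called as deposited. Rasgef1a rose by 0.61 ± 0.08 (limma adjusted p = 0.000511) and Rasgef1b by 0.59 ± 0.08 (limma adjusted p = 0.000666), beside Rasgef1c. Chgb and Vgf, granins stored with Scg2, rose by 0.47 ± 0.08 (limma adjusted p = 0.0015) and 0.37 ± 0.10 (limma adjusted p = 0.0174); the Vgf call was lost without P14 IP replicate 2 (limma adjusted p = 0.0644), without P21 IP replicate 1 (0.064) and with no filter (0.0584). Mpp6 rose by 0.54 ± 0.11 (limma adjusted p = 0.00424), Plekho2 by 0.54 ± 0.10 (limma adjusted p = 0.0032) and Uqcc3 by 0.21 ± 0.05 (limma adjusted p = 0.00742), beside the late-onset genes Mpp3, Plekho1 and Uqcc2.

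**Figure D5:**
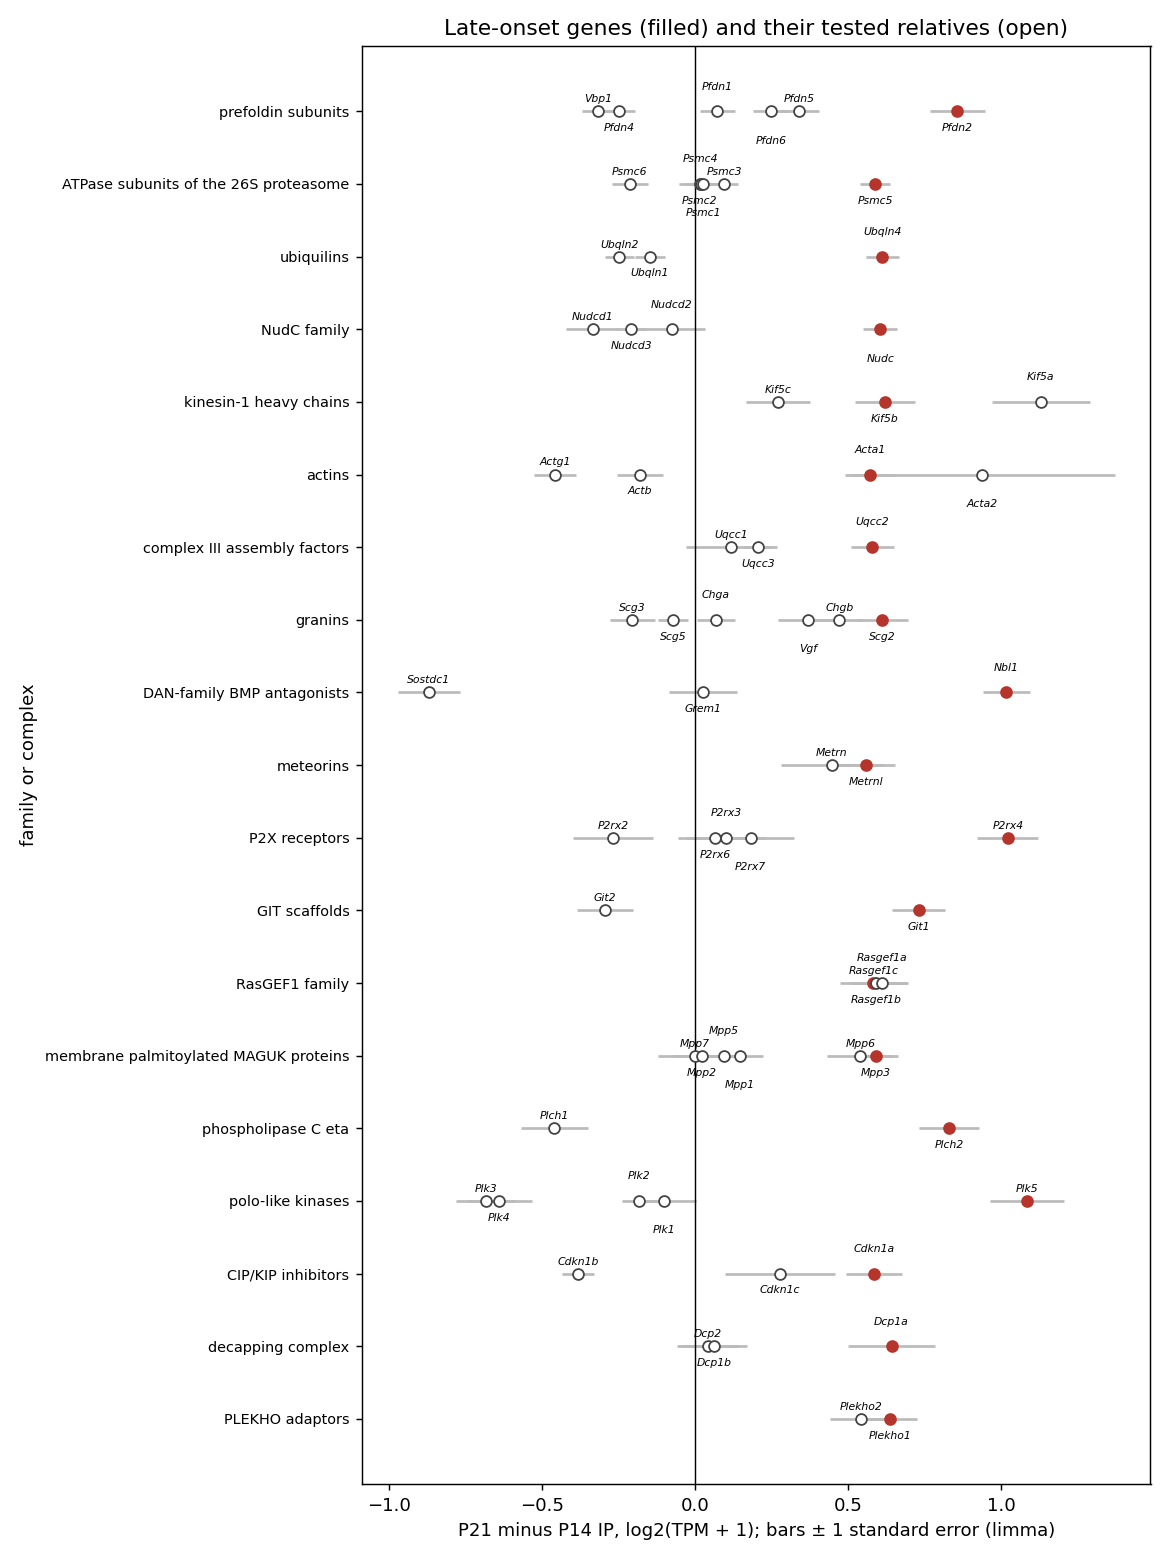
Change from P14 to P21 in IP, in log2(TPM + 1), for late-onset genes (filled) and tested members of the same family or complex (open), 1 family per line; points are limma estimates and bars 1 standard error. Filled points all lie to the right by choice; open points are spread on both sides, with Psmc1 to Psmc4 near 0, Plch1 and Git2 to the left, and Rasgef1a, Rasgef1b and Kif5a to the right.

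Genes lay close to the limits of the rule on both sides. Just inside the ratio of 1.5 were Uqcc2 at 1.5003, Acta1 at 1.502 and Psmc5 at 1.507, and just outside were Pla2g7 at 1.496, Tmem106c at 1.490 and ENSMUSG00000142880 at 1.487. At the level of 5 TPM, Plk5 at 5.20, ENSMUSG00000135962 at 5.29 and Gm40493 at 5.38 TPM were in, and Hunk at 4.80, Tagln at 4.73 and Serinc2 at 4.66 TPM were out. At the lower edge of the P14 band Acta1 at 0.849, 1700037C18Rik at 0.853 and Afap1l1 at 0.863 were in, and Trp53i11 at 0.798, ENSMUSG00000137581 at 0.793 and Gm2415 at 0.784 out. At the upper edge Nbl1 at 1.233, Gstm7 at 1.200 and Plch2 at 1.195 were in, and Hes5 at 1.255, Rnf39 at 1.256 and Relt at 1.256 out.

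All 43 genes met the rule under 3 other scalings, under which 110, 82 and 59 genes met it in all. The median P21 minus P14 change of all tested genes was -0.0753 as deposited and 0.0106, -0.0142 and -0.0692 under them. Each scaling thus made the P21 condition easier to meet, so little is read from the 43 being kept. Without P14 IP replicate 1, 74 genes met it, 41 of the 43 among them, and 17 met it whichever single IP library was left out. Those 17 were Abhd11os, H2-T23, Plk5, Gm11175, Ier3, Gm40493, Pfdn2, Afap1l1, Dcp1a, Git1, Grhpr, Plekho1, Ubqln4 and 4 unnamed IDs. Nbl1, P2rx4, Scg2, Kif5b, Psmc5 and Uqcc2 were not among them. At P21 the coefficient of variation had a median of 9.87% over the late-onset genes and of 6.71% over all genes of at least 5 TPM. It was above 20% in Abhd11os, Gm11175, Ttr, Ptgds and ENSMUSG00000120951. The highest P21 library was replicate 1 in 18 genes, replicate 2 in 10 and replicate 3 in 15.

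A replicate that took no part in the choice gives values that the rule did not fix. The sets chosen anew without replicates 1, 2 and 3 held 36, 33 and 25 of the 43 late-onset genes. The values below thus describe what the rule picks. They are no test of the 43, which were chosen with all IP libraries. Chosen without replicate 1, 83 genes met the rule, and 66 of them were higher at P21 than at P14 in replicate 1, 36 by at least 1.5 times, with a median ratio of 1.42; of all genes of at least 5 TPM 40% were higher, 3.99% by that much. Chosen without replicate 2, 59 genes met it, with 52 higher in replicate 2, 24 by at least 1.5 times, a median of 1.4599, and 33.7% and 4.45% of all genes. Chosen without replicate 3, 64 genes met it, with 51 higher in replicate 3, 27 by at least 1.5 times, a median of 1.39, and 42.8% and 5.97% of all genes. The median ratios in the left-out replicate were below the 1.5 of the rule and above those of all genes, 0.952, 0.914 and 0.964. The flat first step recurred no more often than in all genes: in the left-out replicate P14 lay within the band around P7 in 35 of the 83 genes (42.2%), 29 of the 59 (49.2%) and 33 of the 64 (51.6%), against 43.4%, 49.7% and 52.3% of all genes of at least 5 TPM. Replicate numbers do not pair libraries across ages, so each ratio joins a P14 and a P21 library of the same number only by name.

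Annotation gives features that the rule did not use. RefSeq lists 30 late-onset genes as protein-coding (69.8%, and 71.2% of all tested genes) and 2 as long noncoding, and 11 had no RefSeq entry. The coding ones spanned a median of 11031.5 bases in the genome, against 24587 bases over 13528 tested coding genes, so they were shorter at the median; this was not tested. The 3 chromosomes with most late-onset genes, picked for that, held 5 each. Chromosome 17 held H2-T23, Ier3, Cdkn1a, Uqcc2 and Eci1, chromosome 11 Git1, Psmc5, Rasgef1c, Metrnl and Mpp3, and chromosome 4 Nbl1, Plch2, Grhpr, Nudc and Dhrs3. These chromosomes hold 4.84%, 8.1% and 6.28% of tested coding genes. Of 31 gene lists drawn up for cell types, layers, channels, clocks, hormones and metabolism, 4 held 1 late-onset gene each. The late-onset genes are 0.226% of all tested genes, so nothing is read from the 27 lists without one.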

How the data were processed

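Per the labels' protocols, polyadenylated RNA of mouse cortex with hippocampus was sequenced in 9 IP and 2 input libraries. Values are the authors' TPM, deposited as 1 table of 77179 Ensembl IDs by 11 libraries. fastp 1.0.1, Salmon 1.10.0, DESeq2 1.46.0 and mm39 are named per the submitters' processing notes; not given in the sources used here are the step each served, the annotation, the summing of transcripts to genes and the use of strand. TPM depends on all other genes of a library and keeps no depth, so no counting error can be given. The p-values measure the spread between these libraries.

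The age rule was applied to the deposited TPM. The 19008 genes that reached 1 TPM in 2 or more libraries were fitted as log2(TPM + 1) with limma 3.58.1 in R 4.3.3: group means over all 11 libraries, 7 residual degrees of freedom, trended moderation, Benjamini-Hochberg adjustment over all genes and calls at 0.05. The code was tested on simulated data. Ensembl IDs were matched to symbols by ID (50886 of 77179), and to RefSeq (GRCm38.p6) for biotype, genomic span, chromosome and start-site windows. Python 3.11.15 made the tables.

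The members and lists were chosen with earlier results of these data known. Named genes are, among annotated members, the 12 with the largest P21 to P14 ratio, the 10 most abundant at P21, the 6 highest and the 6 lowest in IP against input, members of the lists, and the 3 genes on each side of each limit; the other members are named so that all are accounted for. Alternatives were other limits of the rule, pseudocounts, filters, scalings, fits without trend, with the P7 libraries alone or with a replicate block, and each library left out. The alternatives for family relatives were chosen after seeing the data; 1 relative is not reported here.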

Additional observations from a re-analysis of the deposited data

How the results depend on the processing

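The number of genes that met the rule moved with its limits, to 10 and 126 at P21 to P14 ratios of at least 2 and 1.3, to 21 and 86 at P14 bands of 0.9 to 1.1 and 0.67 to 1.5, and to 131 and 25 at means of at least 1 and 10 TPM. It was 60 with no condition on overlap, 110 with median-of-ratios scaling, 82 with quantile normalisation and 59 with rescaling. It ran from 44 to 83 with replicates or libraries left out: 83 without replicate 1 at all ages and 74 without P14 IP replicate 1. In the P7 comparison the count of genes higher in IP was 9 (of 33 genes tested, at means of at least 5 TPM) to 17 over the 21 alternatives; the count lower was 8 with median-of-ratios scaling, 14 with quantile normalisation, 26 with rescaling, 23 with a pseudocount of 5 TPM and 16 to 22 with a library left out. The median change became 0.13 (0.1262) and 0.09 (0.0909) under these 2 scalings and -0.17 (-0.1680) with a pseudocount of 5 TPM.

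Of the 42 genes with a P7 value, 19 kept direction and call under every alternative, and 15 turned direction in at least 1. With median-of-ratios scaling the turned values were 0.0524 for Ubqln4, 0.3412 for Git1, 0.3060 for Psmc5, 0.3279 for Nudc, 0.0331 for Plk5, 0.1535 for Grhpr, 0.2554 for Metrnl, 0.0110 for Mpp3, 0.1008 for ENSMUSG00000121247, 0.1516 for ENSMUSG00000121867 and 0.0257 for ENSMUSG00000135962. With quantile normalisation they were -0.0906 for Pfdn2, 0.1272 for Dcp1a, 0.2372 for Plk5, 0.1865 for Grhpr, 0.4029 for Metrnl, 0.0546 for H2-T23, 0.3162 for ENSMUSG00000121247, 0.3427 for ENSMUSG00000121867 and 0.2358 for ENSMUSG00000135962. With rescaling the value was -0.0270 for ENSMUSG00000122428, and with a library left out it ran from -0.1185 to 0.2170 for ENSMUSG00000122428. The cause was not tested. A call was lost in at least 1 alternative for 13 genes and gained for 7. Without input replicate 1, Ier3, Psmc5, Dcp1a, Nudc, ENSMUSG00000121247 and ENSMUSG00000135962 lost theirs. Relatives lower at P21 numbered 9 with median-of-ratios scaling, an alternative chosen after seeing the data, and 10 to 15 with a library left out. Of the relatives, 10 turned direction in at least 1 alternative, none of them called there or as deposited. With median-of-ratios scaling the values were 0.0383 for Nudcd2 and 0.0462 for Scg5, with quantile normalisation 0.0220 for Nudcd2, and with a pseudocount of 0.1 TPM -0.0067 for Mpp7. With a library left out they ran from -0.0410 to 0.0936 for Psmc2, -0.0923 to 0.0526 for Mpp7, -0.0539 to 0.0996 for Grem1, -0.0523 to 0.1321 for Dcp2, -0.0051 to 0.0642 for Mpp2, -0.0221 to 0.0468 for Psmc4, -0.0017 to 0.1146 for Chga, -0.1947 to 0.0000 for Nudcd2 and -0.0581 to 0.1627 for Dcp1b.

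With the replicate number as a block, 12 late-onset genes were higher and 22 lower in IP, with a median of -0.27, and Dcp1a lost its call (limma adjusted p = 0.0551). Deviations of same-numbered libraries correlated at -0.105 to 0.177, so the numbers were not taken as pairing. TPM without depth leave no way to state what the counting error of low genes such as Plk5 allows.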
